A study of Mus musculus with 14 samples.

Results

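The 40 genes described here are interferon-stimulated antiviral genes, taken from a list of symbols chosen with earlier results of these data known. They were followed in Ocy454 cells, a mouse osteocyte-like line in which a temperature-sensitive large T antigen is expressed constitutively. The study describes growth at 33 °C that ends, with differentiation beginning, once the dishes are moved to 37 °C. Of the 40 genes, 39 were found by symbol among the 39179 genes of the differentiation table, and *Ifit3b* was found there by its gene identifier under an older symbol. All 40 were present among the 35886 genes of the sorted libraries. The differentiation experiment holds 8 libraries, with 2 replicates each of day 1, day 7, day 10 and day 14 after the move to 37 °C. The sorting experiment holds 6 libraries, with 3 replicates each of CD61high and CD61low cells, the 10% of live cells with the brightest and the dimmest CD61-PE signal after 17 days. CD61 is integrin β3, the product of *Itgb3*, which is why that gene serves as the check of the sort. All groups are the same line and carry the T antigen, and the labels name neither interferon nor a virus as a treatment. Sorted cells were also dissociated and stained before extraction, and their RNA kit differed from that of the differentiation cells, whose replicates the study describes as biologic.

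Interferons are secreted proteins that cells make when their sensors meet foreign nucleic acid. Type I interferons bind the IFNAR receptor, whose kinases phosphorylate transcription factors. With IRF9 these form a complex that binds a DNA element in the promoters of its target genes, the interferon-stimulated response element. The products of these genes block viruses at entry, translation, replication and release, and many cells keep a low level of them without infection. Some of the targets are themselves sensors or transcription factors of the pathway, so the pathway feeds back on itself.

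The promoters are shown because many members are known targets of one DNA-binding complex. For each gene, the 250 bases before and 50 after the annotated start (GRCm39, GENCODE M39, canonical transcript) were searched on both strands for GAAANNGAAA, a core of the response element. Overlapping matches were counted separately. Of the 40 members, 19 (47.5%) held at least 1 match, against 835 of 21770 windows (3.84%) of the same length over protein-coding genes and the members. The symmetric core of the gamma-activated site, TTCNNNGAA, was present in 5 members (12.5%), against 8.81% of all windows. The 150 bases before the start are printed below, with the matches in capitals; a match on the other strand appears as its reverse complement. The first 5 genes hold matches, and *Usp18* holds one on each strand. *Oasl2*, *Isg20* and *Samd9l* hold none, and are among 21 of the 40 members without a match. *Isg20* and *Samd9l* are the only tested members with higher values in CD61high cells. Their canonical starts, like those of some other members, lie inside the annotated gene, and other starts were not searched.
*Ifit1*, chr19:34618121-34618270, plus strand: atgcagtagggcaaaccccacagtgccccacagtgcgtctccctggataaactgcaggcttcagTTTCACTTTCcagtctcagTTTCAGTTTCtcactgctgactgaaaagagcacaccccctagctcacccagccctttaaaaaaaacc
*Isg15*, chr4:156285304-156285453, minus strand: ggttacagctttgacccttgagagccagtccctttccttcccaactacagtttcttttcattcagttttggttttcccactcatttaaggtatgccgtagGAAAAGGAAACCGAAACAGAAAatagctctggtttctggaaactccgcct
*Usp18*, chr6:121222707-121222856, plus strand: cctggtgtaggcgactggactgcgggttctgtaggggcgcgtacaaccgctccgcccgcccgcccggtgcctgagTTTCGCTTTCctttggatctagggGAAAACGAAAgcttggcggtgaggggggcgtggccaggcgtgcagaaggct
*Oas2*, chr5:120887934-120888083, minus strand: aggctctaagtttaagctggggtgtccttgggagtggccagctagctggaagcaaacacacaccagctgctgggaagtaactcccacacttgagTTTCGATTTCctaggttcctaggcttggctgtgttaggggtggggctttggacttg
*Zbp1*, chr2:173060725-173060874, minus strand: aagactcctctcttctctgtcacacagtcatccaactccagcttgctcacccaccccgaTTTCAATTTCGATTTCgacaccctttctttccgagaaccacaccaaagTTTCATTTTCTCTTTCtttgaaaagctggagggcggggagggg
*Oasl2*, chr5:115034847-115034996, plus strand: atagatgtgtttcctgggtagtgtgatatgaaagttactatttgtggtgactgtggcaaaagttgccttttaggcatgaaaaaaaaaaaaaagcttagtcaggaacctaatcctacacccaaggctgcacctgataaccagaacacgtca
*Isg20*, chr7:78563363-78563512, plus strand: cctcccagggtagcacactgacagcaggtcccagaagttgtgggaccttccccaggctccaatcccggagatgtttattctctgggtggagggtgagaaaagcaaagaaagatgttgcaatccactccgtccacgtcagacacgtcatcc
*Samd9l*, chr6:3399591-3399740, minus strand: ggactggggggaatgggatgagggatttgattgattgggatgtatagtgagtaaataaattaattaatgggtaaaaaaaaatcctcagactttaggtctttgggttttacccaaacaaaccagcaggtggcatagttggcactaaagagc

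The 19 members with a match were *Bst2*, *Dhx58*, *Gbp2*, *Ifi203*, *Ifi204*, *Ifi27*, *Ifih1*, *Ifit1*, *Ifit3*, *Ifit3b*, *Isg15*, *Oas1a*, *Oas2*, *Oas3*, *Rsad2*, *Rtp4*, *Trim30a*, *Usp18* and *Zbp1*. Of these, 9 held at least 2 matches, and *Rtp4* and *Zbp1* held 4 each. A match is a description of the sequence, and no match says only that these letters are not in the window.

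**Figure D1:**
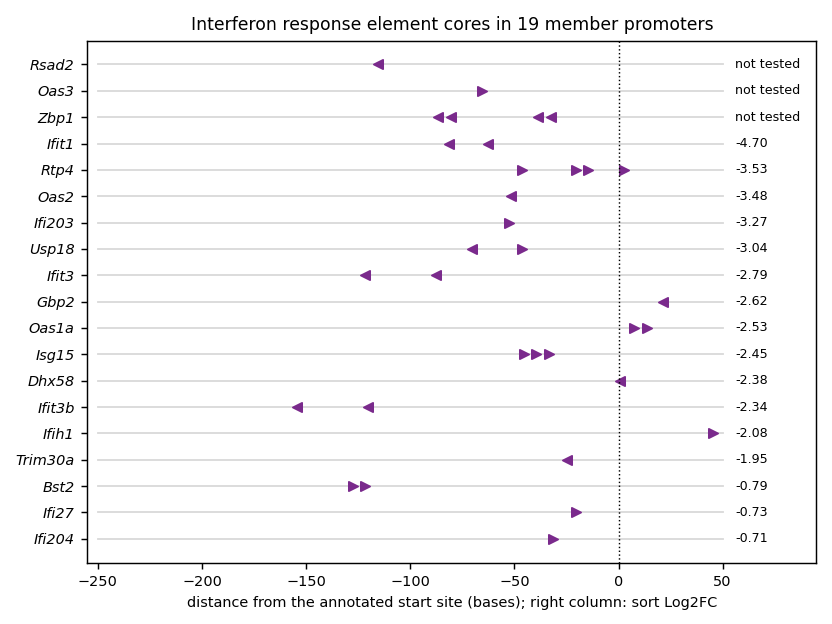
Position of each GAAANNGAAA match (triangle, pointing right for the plus and left for the minus reading) from 250 bases before to 50 after the annotated start of 19 members, in bases. The right column gives the Log2FC of CD61high against CD61low for the 16 members tested, which runs from -4.70 for *Ifit1* to -0.71 for *Ifi204*.

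Many members also lie next to each other. *Ifit2*, *Ifit3*, *Ifit3b* and *Ifit1* occupy chr19:34527932-34632174, *Oas2*, *Oas3* and *Oas1a* chr5:120868398-121046449, and *Oasl2* and *Oasl1* chr5:115034997-115075974. *Parp14*, *Dtx3l* and *Parp9* lie within chr16:35653231-35792980, *Mx1* and *Mx2* within chr16:97248235-97362100, *Gbp3* and *Gbp2* within chr3:142265731-142343779, *Rsad2* and *Cmpk2* within chr12:26492745-26529836, and *Ifi204* and *Ifi203* within chr1:173574859-173770436. Such families can share reads. Windows of 50 bases that also occur in another gene made up 56.8% of the *Oas1a* transcript (shared with *Oas1g*), 48.0% of *Ifit3b* and 46.9% of *Ifit3* (shared with each other), 28.6% of *Ifi204*, 21.0% of *Ifi203* and 19.6% of *Herc6*. Values of these 6 genes are uncertain to that extent, and no other member was above 10%.

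Differentiation libraries hold 27518605 to 34311238 reads on genes and sorted libraries 18815602 to 19220064 estimated counts. The sort was checked by *Itgb3*, which measured 5.31, 5.54 and 6.10 CPM in CD61low and 100 to 130 CPM in the 3 CD61high libraries. Of 10 osteoblast and osteocyte markers, 9 were tested and 8 were higher in CD61high cells, and the whole list summed to 17541 to 21427 CPM in CD61low and 49908 to 52587 CPM in CD61high libraries. The defining macrophage markers *Adgre1* and *C1qa* were at 0 in all libraries. The 10 macrophage markers summed to 14.0 to 16.9 CPM in CD61low and 8.94 to 9.97 CPM in CD61high libraries, mostly *Cd68* (15.1, 12.2 and 15.3 against 8.57, 8.52 and 7.12 CPM, not called). Of the 5 lymphocyte markers *Cd3e* and *Nkg7* were at 0 throughout, and the sum was at most 0.563 CPM. The 5 endothelial markers summed to at most 0.383 CPM, with *Emcn* at 0. Of the 5 plasmacytoid dendritic cell markers, *Siglech* was at 0 throughout, and the sum of 208 to 379 CPM came nearly all from *Tcf4* and from *Bst2*, itself a member. The 5 proliferation markers summed to 739 to 1010 CPM in CD61low and 1087 to 1336 CPM in CD61high libraries, and none of them was called in the sort. Over differentiation they summed to 1125 to 1146 CPM on day 1, 1075 on day 7, 1035 to 1044 on day 10 and 1060 to 1112 on day 14. None of these markers was called between days. Their part in the results below was not tested. These are bulk samples, in which fewer cells of a type and less RNA per cell cannot be told apart.

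The first comparison asks how the members differ between cells with high and low surface CD61. Values are CPM, counts scaled to a common library total, after TMM adjustment for composition. Tests are edgeR's quasi-likelihood tests. A call needed a Log2FC beyond 1 in either direction and significance after Benjamini-Hochberg adjustment at the 0.01 level. Of the 40 members, 33 passed the filter of at least 5 normalized counts in all 6 libraries. Of these, 22 (66.7%) were called lower in CD61high cells, where 4.37% of the 12077 genes tested were called lower. Because the members were chosen with earlier results of these data known, such shares, here and below, are descriptions only. None of the 33 was called higher, where 4.84% of all genes tested were; at an unadjusted p under 0.05 only *Isg20* and *Samd9l* were above 0, and DESeq2 also called none. The median Log2FC of the 33 was -2.08, beside 0.00 over all genes tested. In 30 of the 33, all CD61high libraries lay below all CD61low libraries, a pattern found in 28.5% of genes tested. Summed over the 40 members, CPM ranged from 1350 to 1460 in CD61low and from 646 to 675 in CD61high libraries. The study's methods describe 3 independent groups of cells for the sort; they do not say whether these were separate cultures, so p-values measure the spread between these samples.

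**Figure D2:**
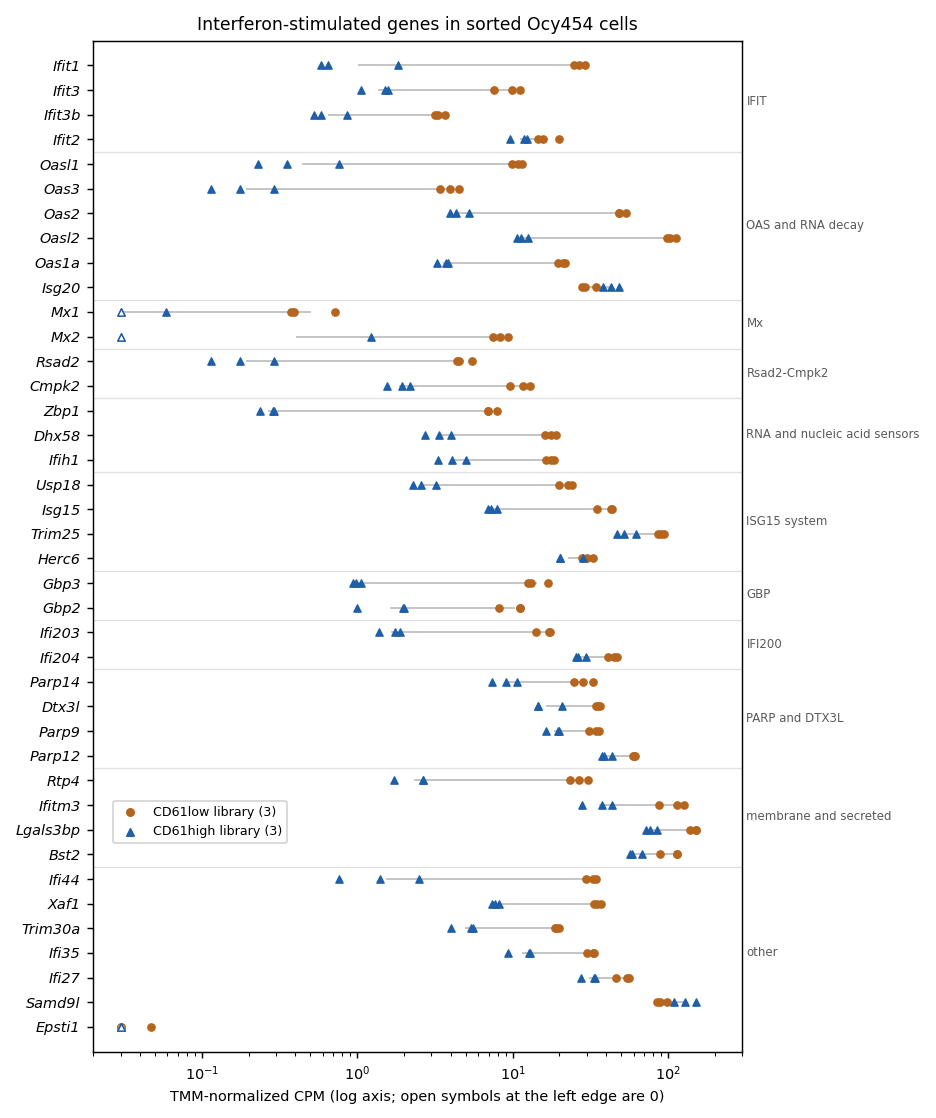
TMM-normalized CPM (log axis) of the 40 members in the 3 CD61low (circles) and 3 CD61high libraries (triangles), ordered by role, with a grey line joining the group means. CD61high libraries lie to the left for most genes, by the widest gap in *Ifit1* and *Zbp1* among genes with no library at 0, and to the right only in *Isg20* and *Samd9l*.

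IFIT proteins bind viral RNA and hold back its translation. *Ifit1* measured 26.9, 29.1 and 24.8 CPM in the CD61low and 0.587, 1.84 and 0.647 CPM in the CD61high libraries. The groups were far apart, and the means differed 26.3-fold (Log2FC -4.70 with a standard error of 0.27, edgeR adjusted p = 6.2e-07). *Ifit3* measured 11.2, 9.85 and 7.57 CPM against 1.58, 1.5 and 1.06 CPM, and *Ifit3b* 3.30, 3.66 and 3.17 CPM against 0.528, 0.864 and 0.588 CPM. Both fell, by Log2FC of -2.79 and -2.34 (standard errors 0.23 and 0.27). *Ifit2*, at the edge of the cluster, was the exception in the family. Its libraries held 15.6, 19.8 and 14.5 CPM against 12.4, 9.61 and 11.8 CPM, which did not overlap but gave a Log2FC of only -0.57 and no call.

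OAS enzymes make oligoadenylates that switch on RNase L, OASL proteins are their relatives, and *Isg20* encodes an RNA exonuclease. *Oasl2* measured 113, 103 and 98.9 CPM in CD61low and 11.3, 12.6 and 10.7 CPM in CD61high libraries. *Oas2* measured 48.3, 54.0 and 48.6 CPM against 5.22, 3.97 and 4.29 CPM, and *Oas1a* 21.0, 21.6 and 19.7 CPM against 3.81, 3.28 and 3.71 CPM. All 3 fell, by Log2FC of -3.19, -3.48 and -2.53, with a standard error of at most 0.12. *Oasl1* and *Oas3* did not pass the filter, since their CD61high libraries were too low. They measured 11.5, 9.90 and 10.8 CPM against 0.763, 0.230 and 0.353 CPM, and 3.40, 3.94 and 4.49 CPM against 0.293, 0.115 and 0.176 CPM. *Isg20* went the other way, with 34.2, 29.1 and 27.9 CPM in CD61low and 38.0, 48.2 and 42.8 CPM in CD61high libraries. Its groups did not overlap, and its Log2FC of 0.50 (edgeR adjusted p = 0.0037, standard error 0.11) did not reach the size for a call. It lay at 0.20 with library size as the only scaling (adjusted p = 0.14 in edgeR).

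*Mx1* and *Mx2* encode dynamin-like GTPases that trap viral capsids, and *Rsad2* encodes viperin, which makes a chain-terminating nucleotide. *Mx1* was near the limit of detection, with 15, 8 and 8 estimated counts in CD61low and 1, 0 and 0 in CD61high libraries, a ratio of 25.3 (95% exact counting interval 4.22 to 1033). *Mx2* measured 7.46, 8.35 and 9.37 CPM against 1.23, 0 and 0 CPM, so that 1 CD61high library holds all of that group's signal. *Rsad2* measured 4.4, 5.44 and 4.49 CPM against 0.293, 0.115 and 0.176 CPM. None of the 3 passed the filter, and in each all CD61high libraries lay below all CD61low libraries. *Cmpk2*, the neighbour of *Rsad2* and a mitochondrial nucleotide kinase, measured 11.7, 9.57 and 12.9 CPM against 2.17, 1.55 and 1.94 CPM. It fell with a Log2FC of -2.59 (standard error 0.19).

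Among the sensors, *Ifih1* encodes MDA5 and *Dhx58* encodes LGP2, which both bind double-stranded RNA, and *Zbp1* encodes a receptor for Z-form nucleic acid. *Ifih1* measured 16.3, 17.7 and 18.4 CPM against 4.05, 5.01 and 3.29 CPM, and *Dhx58* 17.6, 18.9 and 16.1 CPM against 3.34, 4.03 and 2.71 CPM. Both fell, with Log2FC of -2.08 and -2.38 (standard error 0.16 each). *Zbp1*, whose printed promoter holds 4 matches, measured 6.98, 7.88 and 6.93 CPM against 0.293, 0.288 and 0.235 CPM and did not pass the filter. Of the 7 members that the filter removed, 6 were called lower when no filter was applied, and the exception was *Epsti1*, which had a single estimated count in all 6 libraries.

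ISG15 is a ubiquitin-like protein that is attached to other proteins by enzymes that include HERC6 in mice, and USP18 removes it and also dampens the type I receptor. *Isg15* measured 43.0, 43.4 and 34.7 CPM in CD61low and 7.27, 6.97 and 7.94 CPM in CD61high libraries. *Usp18* measured 24.1, 22.6 and 19.9 CPM against 2.58, 3.22 and 2.29 CPM. Both fell, with Log2FC of -2.45 and -3.04 (standard errors 0.12 and 0.15). The ligases differed from them. *Herc6* was the only tested member whose groups overlapped, at 28.0, 29.9 and 33.1 CPM against 28.3, 20.1 and 20.3 CPM (Log2FC -0.41, adjusted p = 0.031 in edgeR). *Trim25*, a ligase that acts on the sensor RIG-I, measured 86.3, 90.6 and 94.3 CPM against 61.8, 47.3 and 52.4 CPM, with a Log2FC of -0.75 and no call.

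Guanylate-binding proteins are GTPases that attack membranes around pathogens, and the IFI200 proteins bind DNA and regulate transcription. *Gbp3* measured 16.8, 12.6 and 13.2 CPM against 1.06, 0.979 and 0.941 CPM, and *Gbp2* 11.2, 11.1 and 8.2 CPM against 1.99, 1.96 and 1.00 CPM. Both fell, with Log2FC of -3.83 and -2.62. The IFI200 pair was split. *Ifi203* measured 14.1, 17.1 and 17.5 CPM against 1.88, 1.38 and 1.76 CPM and fell by Log2FC -3.27, while *Ifi204* measured 45.2, 47.3 and 41.3 CPM against 29.7, 26.3 and 25.6 CPM, a Log2FC of -0.71 without a call.

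PARP9 and DTX3L act as a pair in ADP-ribosylation and ubiquitination, and PARP14 is an ADP-ribosyltransferase of the same gene cluster. *Parp14* measured 25.0, 28.2 and 33.1 CPM against 10.6, 7.37 and 9.12 CPM, and *Dtx3l* 34.2, 35.3 and 36.5 CPM against 20.7, 14.6 and 14.5 CPM. They were called, with Log2FC of -1.67 and -1.09, although *Dtx3l* lost the call against the stricter null of a Log2FC of 1. *Parp9* measured 36.2, 34.5 and 30.8 CPM against 19.7, 16.4 and 20 CPM, and *Parp12* 61.6, 60.1 and 59.3 CPM against 38.9, 37.4 and 43.5 CPM. With Log2FC of -0.86 and -0.60 they were not called, and in both all CD61high libraries lay below all CD61low libraries.

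At the membrane, IFITM3 blocks virus entry, BST2 tethers budding virus to the cell, and RTP4 is a receptor transporter with antiviral activity. Per transcript length, *Ifitm3* and *Bst2* were the highest members in CD61low cells, at 427 and 325 TPM (transcript abundance scaled by length and library total, mean of 3), followed by *Lgals3bp* at 191, *Ifi27* at 170 and *Isg15* at 156 TPM. *Ifitm3* measured 127, 115 and 87.4 CPM in CD61low and 27.9, 43.9 and 37.4 CPM in CD61high libraries and fell (Log2FC -1.59, standard error 0.17). *Rtp4* measured 30.7, 26.9 and 23.5 CPM against 2.64, 1.73 and 2.65 CPM and fell more (Log2FC -3.53). *Bst2* measured 115, 114 and 88.3 CPM against 58.9, 67.8 and 56.8 CPM, and *Lgals3bp*, a secreted glycoprotein, 152, 151 and 139 CPM against 72.7, 85.3 and 77.1 CPM. These last genes did not overlap between groups but had Log2FC of -0.79 and -0.91, short of a call.

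*Ifi44*, which encodes a cytoplasmic protein, measured 29.5, 34.5 and 33.0 CPM in CD61low and 1.41, 2.48 and 0.765 CPM in CD61high libraries. Its Log2FC of -4.37 was second among tested members to that of *Ifit1*, and its promoter window holds no match to the core searched. *Xaf1*, which encodes a pro-apoptotic protein, measured 33.2, 37.1 and 34.8 CPM against 7.39, 8.12 and 7.65 CPM and fell (Log2FC -2.18). *Trim30a*, a regulator of inflammatory signalling, measured 20, 19.0 and 18.8 CPM against 5.57, 4.03 and 5.41 CPM, and *Ifi35* 33.6, 32.8 and 30.0 CPM against 9.33, 12.9 and 12.8 CPM. They fell as well (Log2FC -1.95 and -1.46), though *Ifi35* and *Ifitm3* lost the call against the stricter null. *Ifi27* measured 54.2, 56.5 and 46.4 CPM against 27.5, 34.1 and 33.2 CPM, with a Log2FC of -0.73 and no call. *Samd9l*, which restricts translation and cell growth, ran opposite to them, with 85.5, 89.1 and 98.4 CPM in CD61low and 151, 109 and 129 CPM in CD61high libraries. Its groups did not overlap, and its Log2FC was 0.51 (edgeR adjusted p = 0.0037, standard error 0.11), below the size for a call. It lay at 0.21 with library size as the only scaling (adjusted p = 0.12 in edgeR).

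TMM factors were 1.10 to 1.13 in CD61low and 0.895 to 0.909 in CD61high libraries. With library size alone, the median Log2FC of all genes moved to -0.29 and that of the members to -2.38 and 28 members were called lower. Members with a response element core had a median Log2FC of -2.49, with 13 of 16 tested called lower. Members without one had a median of -1.09, with 9 of 17 tested called lower. The range was -4.70 to -0.71 with and -4.37 to 0.51 without a match, and no test was made of this split. The filter had removed *Oas3*, *Rsad2* and *Zbp1* with a match and *Mx1*, *Mx2*, *Oasl1* and *Epsti1* without one. All of these but *Epsti1* were called lower when no filter was applied.

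The second experiment asks how the members change from day to day. Values are CPM as deposited, Log2FC are differences of log2(CPM + 1) in limma, which understate the change of genes at low CPM, and the same thresholds were used. One library with a CPM above 1 sufficed for testing, which 37 of the 40 members had, and *Mx1*, *Oas3* and *Epsti1*, at most 0.251, 0.838 and 0.0985 CPM, did not. The comparisons below share libraries, so their counts are not independent of each other. With 2 libraries a day, limma's p-values rest on a spread estimated over all 8 libraries and partly shared between genes. They measure the spread between these replicates only. On day 7, 15 of the 37 were lower than on day 1 (4.62% of 12725 genes tested) and none was higher (4.49%); at an unadjusted p under 0.05 *Bst2* and *Isg20* were above 0, and edgeR on the recovered reads also called none higher. The median Log2FC was -0.78, beside -0.05 over all genes. From day 7 to day 10 the direction turned, with 10 members higher (1.43% of genes tested) and 0 lower (0.786%); at an unadjusted p under 0.05 *Isg15* and *Isg20* were below 0, and edgeR also called none lower. The 10 were *Ifit1*, *Ifi44*, *Oas2*, *Oasl1*, *Oasl2*, *Usp18*, *Rtp4*, *Dhx58*, *Parp14* and *Gbp3*, of which *Ifit1*, *Oas2*, *Oasl1* and *Parp14* lost the call when 1 library was left out. The median here was 0.65, beside 0.07 over all genes.

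From day 10 to day 14, 3 members were lower (0.872% of genes tested) and 2 higher (2.09%, *Isg20* by 1.41 and *Samd9l* by 1.73), with a median of -0.32 beside -0.04. The members lower became 5 with a pseudocount of 0.1 and 2 without day 10 replicate 1. Against day 1, 8 members were lower (4.42%) and 2 higher (6.06%, *Bst2* and *Oas2*) on day 10, and 12 were lower (5.9%) and 2 higher (7.51%, *Isg20* and *Samd9l*) on day 14. The medians were -0.30 and -0.70, beside 0.02 and -0.03 over all genes. With a pseudocount of 0.1 the members higher numbered 4 on each of these days, and with edgeR on the recovered reads 5 on day 10 and 4 on day 14. By day means, 30 of the 37 members (81.1%) went down to day 7, up to day 10 and down to day 14, an order found in 25.8% of the genes tested. The 10 macrophage markers summed to 9.35 to 9.68 CPM on day 1, 3.93 to 4.51 on day 7, 7.85 to 8.19 on day 10 and 5.74 to 6.21 on day 14, which is the same order, and *Adgre1*, *Tyrobp* and *C1qa* were at 0 on all days. Of this list *Fcer1g* was lower than on day 1 on the later days (Log2FC -1.27, -1.01 and -1.43) and *Cd68* was higher on day 10 (1.08). Their part in the members' course was not tested. Summed over the 40 members, CPM was 1165 and 1177 (day 1), 745 to 749 on day 7, 972 to 997 on day 10 and 900 to 968 on day 14.

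**Figure D3:**
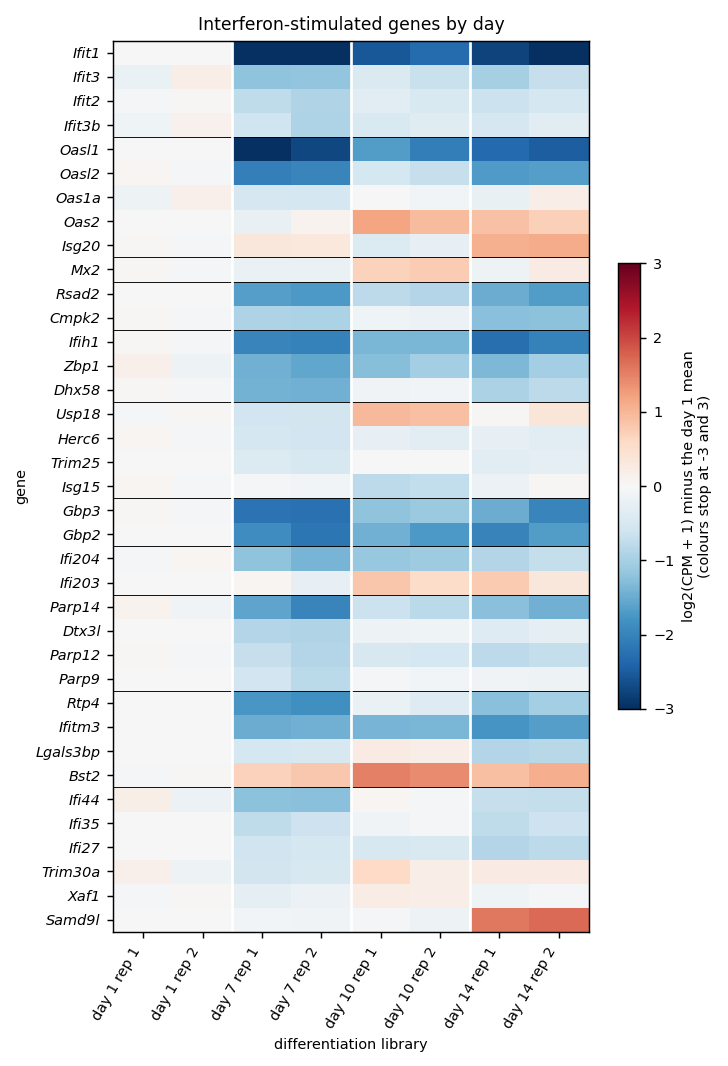
Difference of log2(CPM + 1) from the day 1 mean (colour, blue lower and red higher) in each of the 8 differentiation libraries (columns) for the 37 members tested (rows, ordered by role). Most rows are bluest on day 7, and *Oas2*, *Usp18*, *Mx2*, *Ifi203*, *Isg20*, *Bst2* and *Samd9l* hold the deepest red fields.

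The deepest fall was again that of *Ifit1*. It measured 29.9 and 30.2 CPM (day 1), 0.990 and 2.04 (day 7), 4.30 and 5.29 (day 10), and 3.53 and 2.80 (day 14). Day 1 stood far above all later days, with a Log2FC of -3.66 on day 7 and -2.90 on day 14 (limma adjusted p = 9.8e-18 and 9.9e-16, each with a standard error of 0.15). *Ifit3* measured 1.92 and 2.79 CPM (day 1) and at most 1.48 CPM later, and was called lower on day 7 only (Log2FC -1.19). *Ifit2* again moved less than *Ifit1*, with 25.4 and 26.5 CPM (day 1) and then 15.0 and 13.5 CPM on day 7, a Log2FC of -0.82 without a call.

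Of the OAS family, *Oasl1* measured 18.3 and 18.5 CPM (day 1), 1.38 and 1.94 (day 7), 5.12 and 3.64 (day 10), and 2.86 and 2.47 (day 14). *Oasl2* measured 31.5 and 28.7, then 6.48 and 6.90, then 20.4 and 18.3, then 8.6 and 8.90 CPM on the same days. Both fell by day 7 (Log2FC -2.88 and -2.01), rose to day 10 (1.01 and 1.40, where *Oasl1* with TMM scaling gave 0.96 and no call) and were lower on day 14 than on day 1 (-2.41 and -1.67). *Oas2* ran otherwise. It was low on day 1 (0.443 and 0.470 CPM) and day 7 (0.240 and 0.563 CPM) and reached 2.33 and 1.80 CPM (day 10), when it was called higher than on day 1 (Log2FC 1.07, adjusted p = 1.0e-06 in limma). Without day 10 replicate 1 this Log2FC was 0.95 and no longer called. *Oas2* passed the filter only through its day 10 and day 14 libraries, so its calls against days 1 and 7 are descriptions of its level. *Oas1a* stayed between 0.704 and 1.85 CPM with no call on any day.

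*Rsad2* measured 3.04 and 2.98 CPM (day 1), 0.270 and 0.211 (day 7), 1.31 and 1.19 (day 10), and 0.437 and 0.254 (day 14). It was lower on days 7 and 14 than on day 1 (Log2FC -1.69 and -1.58). *Rsad2* passed the filter only through days 1 and 10, and *Ifit3* and *Zbp1* were likewise under 1 CPM in both day 7 libraries, so these calls, which the counts include, are descriptions of their level. *Cmpk2* measured 7.14 and 6.87 CPM (day 1) and 2.36 and 2.40 CPM by day 14, and fell by Log2FC -1.24. It stood at 6.30 and 6.06 CPM (day 10), close to its day 1 values.

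All 3 sensors were lower on day 7. *Ifih1* measured 24.2 and 23.1 CPM (day 1), 5.25 and 5.0 (day 7), 8.57 and 8.51 (day 10), and 4.17 and 5.05 (day 14), with a Log2FC of -2.14 on day 14 (limma adjusted p = 2.5e-16, standard error 0.10). *Dhx58* measured 11 and 10.5 CPM (day 1), 3.39 and 3.31 (day 7), 9.98 and 10.1 (day 10), and 5.10 and 5.81 (day 14). By day 10 *Dhx58* had risen again (Log2FC 1.34 against day 7) to near its day 1 level, and *Ifih1* had not passed the size for a call. *Zbp1* measured 4.46 and 3.45 CPM (day 1) and at most 1.42 CPM on later days, and was lower on each of them.

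*Usp18* had its maximum on day 10. It measured 3.42 and 3.58 CPM (day 1), 2.04 and 2.08 (day 7), 7.81 and 7.41 (day 10), and 3.64 and 4.76 (day 14), a rise of 1.49 (Log2FC) from day 7 to day 10. Against day 1 its Log2FC on day 10 was 0.94 without a call. With a pseudocount of 0.1 or edgeR on the recovered reads it was 1.10 and called. *Isg15* had its minimum on day 10, with 68.8 and 63.5, then 63.4 and 62.6, then 38.2 and 39.5, then 58.3 and 67.3 CPM. No comparison of *Isg15* was called, and its Log2FC on day 14 was -0.08. *Herc6* ranged from 23.1 to 36.4 CPM, *Trim25* from 57.4 to 82.2, *Parp9* from 17.4 to 31.6, *Parp12* from 37.5 to 71.5 and *Dtx3l* from 9.96 to 19.8 CPM, each with its maximum on day 1 save *Trim25*, and none was called on any day. *Parp14* was lower, with 20.3 and 17.7 CPM (day 1) and 5.67 and 4.05 CPM by day 7, a Log2FC of -1.78.

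*Ifi204* measured 64.3 and 69.4 CPM (day 1), 28.5 and 24.6 (day 7), 29.9 and 31.2 (day 10), and 35.6 and 40 (day 14), and was lower on days 7 and 10 (Log2FC -1.30 and -1.10). *Ifi44* measured 9.56 and 7.31, 3.00 and 2.92, 8.73 and 8.19, and 4.81 and 4.72 CPM, lower on day 7 (-1.24) and higher again from there to day 10 (1.26). *Lgals3bp* measured 93.1 and 91.7, 64.3 and 66.0, 109 and 107, and 49.5 and 51.6 CPM and fell from day 10 to day 14 (Log2FC -1.08), as did *Cmpk2* (-1.09) and *Oasl2* (-1.06, but -0.99 and no call without day 10 replicate 1). Other members, called in no comparison of days on log2(CPM + 1), ranged from 73.9 to 137 CPM in *Ifi27*, from 13.6 to 24.1 in *Ifi35*, from 9.15 to 13.4 in *Xaf1*, from 1.77 to 5.15 in *Trim30a*, from 0.915 to 2.71 in *Mx2* (which was called higher on day 10 than on day 1 with a pseudocount of 0.1, Log2FC 1.08, or with edgeR, 1.11), from 0.95 to 3.12 in *Ifi203* and from 0 to 1.10 CPM in *Ifit3b*. With a pseudocount of 0.1, *Ifit3b* was called lower on day 7 than on day 1 (Log2FC -2.38), and *Ifi203* and *Trim30a* were called higher on day 10 than on day 7 (1.16 and 1.19). *Ifit3b* passed the filter only through 1 library of day 1 (1.10 CPM), so its call is a description of its level.

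*Gbp2* measured 9.50 and 9.47 CPM (day 1) and at most 2.86 CPM later, and *Gbp3* 9.98 and 9.60 CPM (day 1) and at most 4.0 CPM later. Both were lower than on day 1 on all 3 later days, as were *Ifit1*, *Oasl1*, *Ifih1*, *Zbp1* and *Ifitm3*. *Ifitm3* was the highest member per length on day 1, at 229 CPM per kb, and measured 154 and 156 CPM (day 1), 54.7 and 56.1 (day 7), 58.6 and 58.9 (day 10), and 44.6 and 48.3 (day 14). *Rtp4* measured 13.1 and 13.3, 3.24 and 2.96, 11.4 and 9.80, and 4.95 and 6.0 CPM on the 4 days. It rose from day 7 to day 10 (Log2FC 1.5).

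*Bst2*, *Isg20* and *Samd9l* rose. *Bst2* measured 69.8 and 73.7 CPM (day 1), 117 and 126 (day 7), 207 and 192 (day 10), and 135 and 153 (day 14), and on day 10 its Log2FC was 1.46 (limma adjusted p = 5.1e-19, standard error 0.05). With 263 CPM per kb it was then the highest member per length, where *Ifitm3* had 86.9. *Isg20* measured 33.7 and 32.0, then 42.1 and 41.3, then 24.6 and 27.6, then 69.3 and 72.8 CPM. *Samd9l* stayed between 45.3 and 50.4 CPM until day 10 and reached 151 and 164 CPM (day 14). On day 14 they exceeded day 1 by Log2FC of 1.09 and 1.63 (adjusted p = 6.6e-15 and 2.7e-20 in limma). *Bst2* on day 14, with a Log2FC of 0.99, was just short of a call, which it passed with TMM scaling (1.03).

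**Figure D4:**
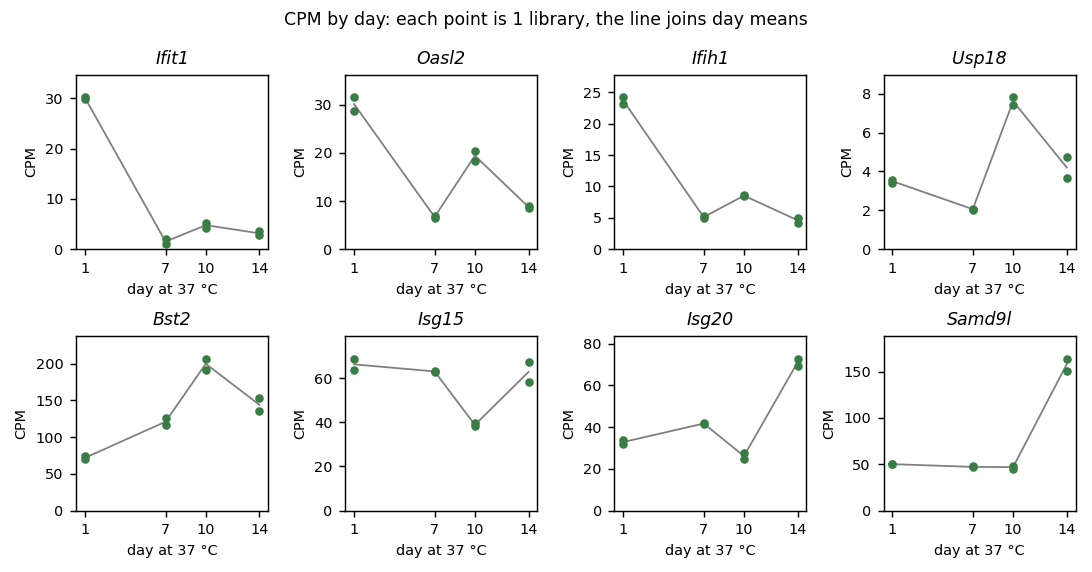
CPM (axis from 0, scaled to each gene) by day at 37 °C for 8 members, where each point is 1 library and the line joins the day means. *Ifit1*, *Oasl2* and *Ifih1* are highest on day 1, *Usp18* and *Bst2* on day 10, *Isg20* and *Samd9l* on day 14, and *Isg15* is lowest on day 10.

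The experiments share no library and can be set side by side for the 33 members tested in both. Of the 12 members lower on day 14 than on day 1, 9 were tested in the sort, and all 9 were lower in CD61high cells. They make up 40.9% of the 22 members lower in CD61high cells. Over all genes tested in both, 637 were lower on day 14 and 502 in CD61high cells, and the 207 lower in both make up 32.5% and 41.2% of these. No test was made of the difference between members and other genes. These are *Ifit1*, *Oasl2*, *Rtp4*, *Ifih1*, *Cmpk2*, *Parp14*, *Gbp2*, *Gbp3* and *Ifitm3*. *Isg20* and *Samd9l* were above 0 in both. *Oas2*, *Ifi203*, *Usp18* and *Trim30a* were called lower in CD61high cells but had Log2FC above 0 on day 14, none of them called on log2(CPM + 1). *Oas2* was called higher on day 14 than on day 1 with a pseudocount of 0.1 (Log2FC 1.55) and with edgeR on the recovered reads (1.79). Over the 33 members the Log2FC of the sort and of day 14 had a Spearman rho of 0.34 and a Pearson r of 0.45, and over the 11445 genes tested in both the rho was 0.54. The points share libraries within each experiment, and these values are descriptions only.

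**Figure D5:**
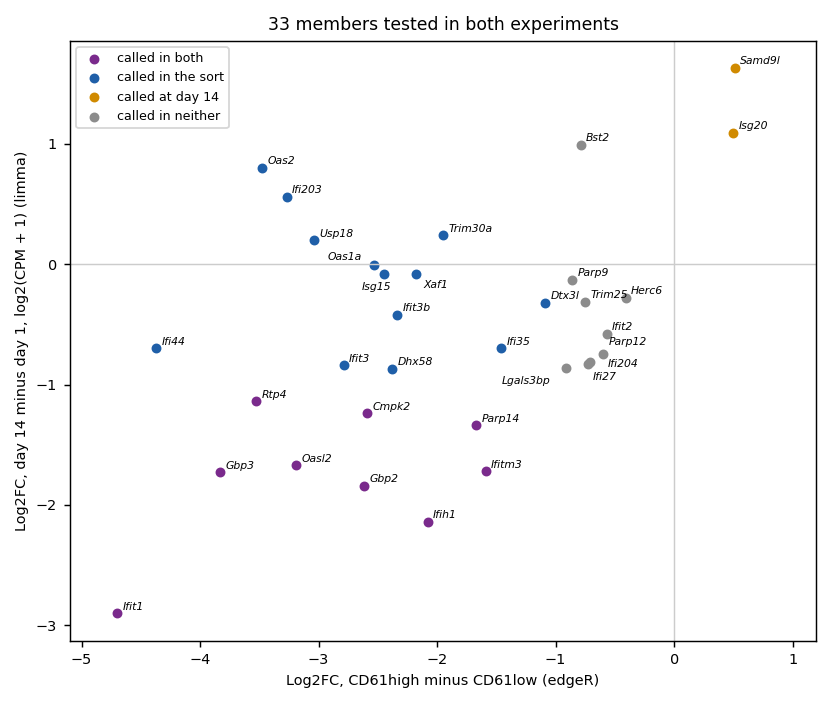
Log2FC of CD61high against CD61low (horizontal, edgeR) and of day 14 against day 1 on log2(CPM + 1) (vertical, limma) for the 33 members tested in both. Purple marks the 9 called in both, and *Isg20* and *Samd9l* are alone in the upper right.

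Other genes of the pathway were taken from a list of 112 genes. Of 11 interferon genes, 8 had no read in any of the 14 libraries, which allows up to 0.012 CPM over the differentiation and 0.0263 CPM over the sorted libraries (counting error only), and the highest was *Ifnz* with 17 reads and 14 estimated counts. None of the 6 receptor genes was called in the sort, and *Ifnar1* measured 103 to 111 CPM in CD61low and 84.5 to 91.5 CPM in CD61high libraries. Of the 82 pathway genes tested, 34 were lower in CD61high cells and 1 was higher, where 4.37% and 4.84% of all genes tested were called. This list, too, was chosen with earlier results of these data known. Among the called genes with the highest mean CPM were *Rnf213* (Log2FC -1.87), *Helz2* (-1.15), *Stat2* (-1.38), *Rigi* (-2.13), *Apol9a* (-2.73), *Adar* (-1.15) and *Irf9* (-1.5). *Irf9*, which encodes the DNA-binding component of the complex at the response element, measured 62.3, 57.4 and 57.0 CPM against 21.5, 22.2 and 18.8 CPM, and its groups did not overlap. The gene that was higher was *Ifitm1* (Log2FC 1.76), a relative of *Ifitm3*. On day 14, 13 of 82 pathway genes tested were lower and 3 higher than on day 1, where 5.9% and 7.51% of all genes tested were called. The 3 were *Jak2* (1.36), *Ptpn6* (1.65) and *Ifitm1* (1.02), and the lower genes with the highest mean CPM were *Tapbp* (-1.82), *Ly6e* (-1.34), *Rnf213* (-1.08), *Irf1* (-1.34), *Rigi* (-1.26), *Psmb10* (-1.04) and *Mov10* (-1.08). *Ifitm1* and *Ptpn6* are named because so few genes were higher, a choice made after their values were seen.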

How the data were processed

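RNA-sequencing libraries of Ocy454 cells were analysed from 2 experiments. For differentiation, the authors aligned reads with STAR, counted them with HTSeq and deposited CPM for 39179 genes. Dividing each CPM by what 1 read is worth gave whole numbers (tolerance 0.01) for 100% of values. For the sort, the authors ran Salmon on GRCm39 and deposited estimated counts and TPM per transcript. Versions of STAR, HTSeq and Salmon are not given in the sources used here. Estimated counts were summed per gene (GENCODE M39, 115556 of 116747 transcripts matched) and rounded. Matched transcripts held 99.3% to 99.4% of the counts.

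CD61high and CD61low were compared with edgeR 4.0.16 (quasi-likelihood, TMM over all genes), and days with limma 3.58.1 (trend, all 8 libraries) on log2(CPM + 1), in R 4.3.3, with Benjamini-Hochberg adjustment over all genes tested. Fits were tested on simulated data. TPM and CPM per kb, with the table's gene length, served only to compare levels between genes. The tables were normalized separately. Samples were grouped by their labels. Tables and figures used Python 3.11.15, pandas 2.3.3 and matplotlib 3.10.9. Any of the 40 members could be named. Per-library values were given first for those with a mean of at least 5 CPM in either experiment, by size of change within each role, and for those that differed from their role group, and up to 8 called pathway genes with the highest mean were named. A pathway gene that this rule would name is not reported here. The members and lists were chosen with earlier results of these data known. Alternatives were DESeq2 1.42.0, other scalings, filters, thresholds and pseudocounts, edgeR on recovered reads (2292 genes called on day 14 against day 1, beside 1707 by limma), a replicate block and each library left out.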

Additional observations from a re-analysis of the deposited data

How the results depend on the processing

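In the sort, 22 to 23 members were called lower with each library left out in turn. Other settings gave 19 (test against a Log2FC of 1) to 28 (no filter, or library size alone), and no setting gave a member called higher. No direction of a tested member changed in the sort. *Dtx3l*, *Ifi35* and *Ifitm3* lost the call in the test against a Log2FC of 1 only. For day 7 against day 1, each library left out gave 15 members lower and 0 higher. A pseudocount of 0.1 or edgeR on the recovered reads gave 17 lower, with *Cmpk2* and *Ifit3b*, whose call only describes its level, added. The same settings gave 9 lower in place of 8 at day 10 (*Rsad2* added) and 13 in place of 12 at day 14 (*Ifit3* added). Members higher at day 10 against day 1 numbered 2, and became 4 with a pseudocount of 0.1, 5 with edgeR on the recovered reads and 1 without day 10 replicate 1 (1 to 2 over the libraries left out), when *Oas2* lost the call. At day 14 the 2 members higher became 4 with a pseudocount of 0.1, 4 with edgeR and 3 with TMM scaling, without day 1 replicate 2 or without day 14 replicate 1. The 3 members lower at day 14 against day 10 became 5 with a pseudocount of 0.1, and 2 without day 10 replicate 1, when *Oasl2* lost the call. The 10 members higher at day 10 against day 7 became 7 (without day 7 replicate 1) to 11 with libraries left out, 8 with TMM scaling, and 15 with a pseudocount of 0.1 or edgeR. Over all genes, limma called 282 and edgeR 550 from day 7 to day 10, and 377 and 731 from day 10 to day 14. *Isg15* at day 14 turned from -0.08 to 0.03 without day 14 replicate 1 and was -0.18 without day 14 replicate 2. The cause was not tested. Same-numbered libraries had correlations of -0.321 to 0.22 in the sort and -0.0253 to 0.0611 in differentiation, and in the sort not every sample correlated best with its own number. The sources do not say whether same-numbered libraries share a group of cells, so the numbers were not used as pairs. With the replicate block, 22 members were lower in the sort, and no count of members called changed in either experiment. Depth limits *Mx1*, *Oas3* and *Epsti1* in both experiments and *Mx2*, *Oasl1*, *Rsad2* and *Zbp1* in CD61high libraries.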

Other observations

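The CD61low cells held some members at levels that no differentiation library reached. *Oas2* measured at least 48.3 CPM in CD61low libraries and at most 2.33 CPM on any day, *Oas1a* at least 19.7 against at most 1.85 CPM, *Oasl2* at least 98.9 against at most 31.5 CPM, and *Ifi44* at least 29.5 against at most 9.56 CPM. Since 56.8% of the *Oas1a* transcript is shared with *Oas1g*, the values of *Oas1a* are uncertain to that extent. Of the 33 members tested in both experiments, 19 (57.6%) had every CD61low library above every differentiation library, as had 17.2% of the 11445 genes tested in both. The tables were counted with different tools and normalized separately, and the cells differ in culture time, sorting and RNA kit, so these are values set side by side and their cause was not tested.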
